A study of Ovis aries with 16 samples.

Results

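Skeletal muscle of sheep exposed before birth to bisphenol A (BPA) was compared with muscle of unexposed sheep in 8 RNA sequencing libraries, 4 per group, of the 16 libraries in the series. The other 8 were livers of the same animals. The muscle libraries were taken as those labelled muscle, and genes were tested where the mean over the 8 was at least 10 normalized reads, which kept 14706 of 28524 rows. A gene was called muscle-made where its muscle mean was at least 5% of its mean over the 8 livers (14211 genes), and liver-type otherwise (495 genes). This split used the mean over both groups. For a row that differs strongly between groups, the side can still depend on the group where it is high. Among the rows called below, LOC101116024 lay at 4.83% and LOC105601867 at 7.26%. At its edge lay FAH at 4.87% and LOC114114646 at 4.93% on the liver side, and CRYM at 5.001% and SEC14L4 at 5.005% on the muscle side. At the edge of the mean minimum, CEP78 and FOXA3 were left out, both with means just under 10, and LOC114115384 and BBS7 were kept just above it.

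All animals were female Suffolk sheep of about 21 months. In the BPA group the mothers had been injected under the skin with 0.5 mg/kg BPA each day from day 30 to day 90 of gestation, a dose the labels tie to about 2.6 ng/ml BPA in the umbilical artery. Mothers of the control group received the corn oil vehicle. The samples thus record adult muscle long after a prenatal exposure. Food was withheld for 48 hours, and vastus lateralis, a thigh muscle, was collected late in the follicular phase, 24 hours after the second of 2 prostaglandin injections given 11 days apart to synchronize the cycle. Each library came from a separate animal: sheep 902, 908, 924 and 928 were controls, and 910, 918, 977 and 984 had been exposed to BPA. Values by library are given in that order throughout.

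Skeletal muscle is built of fast and slow fibres whose sarcomeres hold titin, actin and myosin. It is the main site of insulin-driven glucose uptake and, in fasting, a source of amino acids for the liver. BPA binds oestrogen receptors and other nuclear receptors. Fibrinogen, albumin and ceruloplasmin are plasma proteins made mainly by hepatocytes, and several of them rise in the acute phase response to inflammation.

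The libraries carried the transcripts of muscle. TTN, which encodes titin, was the most abundant gene in all 8 and took 14.3% to 21.2% of the signal. Muscle creatine kinase CKM lay between 310128 and 411785 normalized reads in muscle and at most at 29.2 in any liver. Depth was 16.16 to 28.54 M recovered reads in controls and 15.15 to 26.54 M in BPA, in units of 1e6 (M). Transcripts of other cells were also present. Liver-type rows took 0.188% to 0.388% of the signal, and the erythroid marker sum was 5.90 to 9.74 in controls and 11.2 to 187 in BPA.

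One library stood apart. The BPA library 984 lay close to a weighted mean of the other 3 BPA libraries, with weights of 0.29 for 910, 0.41 for 918 and 0.30 for 977. This mean left 6.39% of its norm unexplained, compared with 13.8% to 18.3% when each of the other 7 libraries was fitted from the other 3 of its group. Over 11143 genes, 75.9% of its values lay within the range of the other 3, compared with 33.7% to 56.6% for the other 7. Among the 48 genes that varied most between 910, 918 and 977, all 48 lay within that range in 984. The haemoglobin gene HBB is an example, at 175, 19.95 and 8.42 in 910, 918 and 977 and 68.1 in 984. The median squared residual was 1.05 times the counting variance in 984 and 1.61 to 2.89 times in the others. Why 984 lies there was not tested. If it is not an independent measurement of an animal of its own, p-values from 8 libraries are too small. Genes past the threshold or near it in muscle are therefore mostly given with and without it. The fits with a covariate, with sample weights or with another library left out were run with 984 in.

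**Figure D1:**
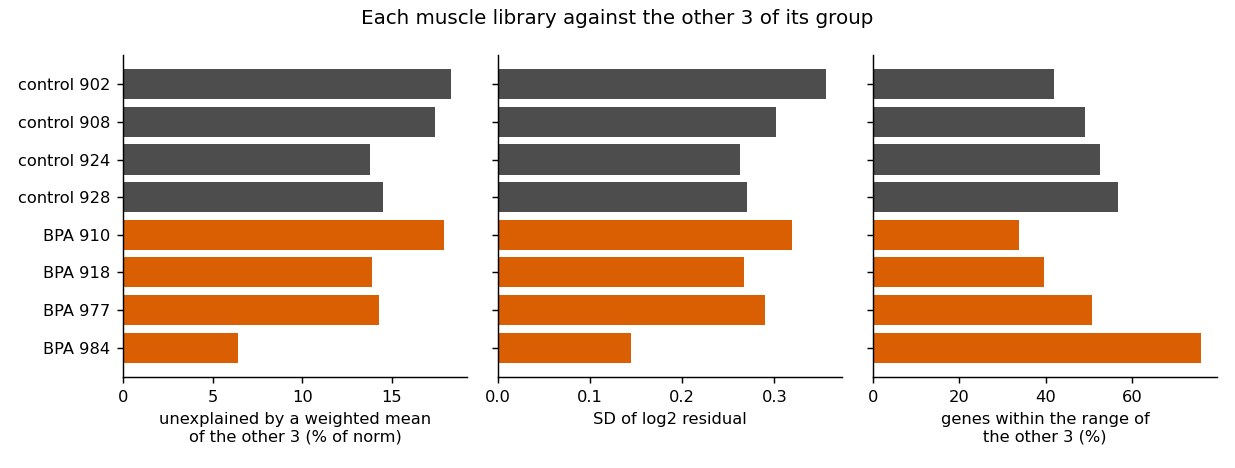
Each of the 8 muscle libraries was fitted as a weighted mean of the other 3 libraries of its group; bars give the share left unexplained, the SD of the log2 residual, and the percentage of genes whose value lay within the range of the other 3. BPA 984 stands apart in all 3 panels, at 6.39%, 0.144 and 75.9%.

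Few genes differed between BPA and control muscle. Of 14706 genes, 19 passed an adjusted p of 0.05 (0.129%), 2 higher (0.0136%) and 17 lower (0.116%) in BPA. Without 984, 11 passed (0.0748%), 1 higher (0.0068%) and 10 lower (0.068%), and all 11 were among the 19, so that no other gene described below passed limma's test without 984. The unadjusted p was under 0.05 for 1142 genes (7.77%), and for 758 (5.15%) without 984. Of the 19, 8 were muscle-made (0.0563% of those tested) and 11 were liver-type (2.22%), and of the 11 without 984, 4 were muscle-made (0.0281%) and 7 liver-type (1.41%). In all 19 the groups did not overlap, and the direction was the same under every alternative in which the gene was tested. The 19 were picked from these same libraries, so that neither is a separate test. Among all 14706 genes, the BPA libraries lay wholly above the controls in 301 (2.05%) and wholly below in 365 (2.48%). Without 984 the shares were 2.68% and 2.91%. The median absolute log2 difference was 0.122, and 230 genes (1.56%) had estimates beyond 1 log2 unit. Counted on recovered reads, edgeR called 19 genes (0.129%), 18 of them shared, and DESeq2 131 (0.891%), which included all 19. Differences are on the scale of log2(normalized reads + 1), BPA minus control, unless stated, and adjusted p-values are limma's. Values written with ± are means and SDs over 4 libraries.

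**Figure D2:**
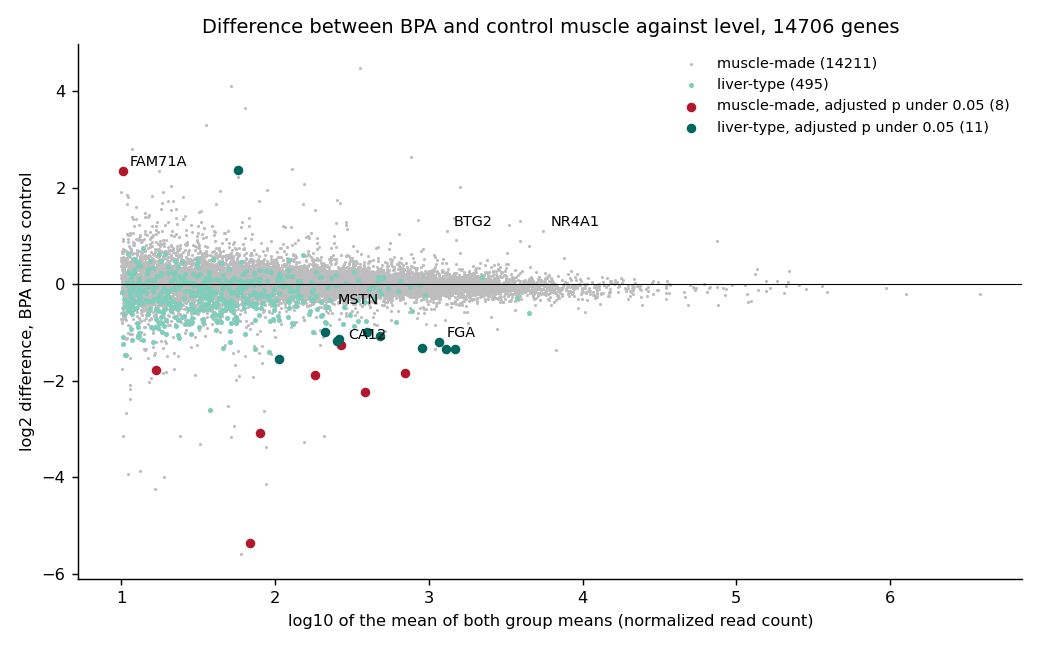
Each point is 1 of the 14706 genes tested in muscle, with the log10 of its mean normalized read count on the x axis and its log2 difference between BPA and control on the y axis. The 8 muscle-made and 11 liver-type genes with an adjusted p under 0.05 are enlarged; 17 of the 19 lie below 0.

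Among muscle-made genes, 7 fell (0.0493%) and 1 rose (0.00704%) in BPA muscle. The clearest pair were neighbours in the RefSeq gene order, both protein-coding and neither with a symbol, in the stretch that follows HPS5. LOC101120204 measured 664, 625, 600 and 657 normalized reads in the controls and 137, 165, 99.7 and 139 in BPA. Every control lay far above the highest BPA library, 918. The means of 636 ± 29.7 and 135 ± 26.9 (SD, n = 4 each) differed by -2.25 on the log2 scale (SE 0.14, adjusted p = 5.63e-05). Without 984 the difference was -2.27 (adjusted p = 7.47e-04).

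LOC105601867, the row beside it, measured 264, 319, 255 and 320 in controls and 74.7, 89.0, 68.8 and 77.0 in BPA. Its log2 difference was -1.89 (SE 0.13, adjusted p = 5.63e-05), and -1.89 without 984 as well (adjusted p = 8.19e-04). As neighbours of the same kind they may share reads, so that the 2 rows need not be separate results. Both are near the liver side of the split, at 17.3% and 7.26% of their liver means. Those liver means rest largely on BPA liver 910, at 12485 and 17009, against at most 2874 and 1525 in any other liver. Their liver levels spread far more than their muscle levels: LOC101120204 ranged from 245 to 2874 in control livers and from 17.6 to 12485 in BPA livers.

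LOC101122347, listed between TPH2 and TRHDE, had the lowest BPA share of its control level among the genes that passed without 984. Controls measured 192, 187, 96.2 and 97.3, and BPA libraries 12.3, 17.7, 22.5 and 10.5. It fell by 3.09 (SE 0.30, adjusted p = 9.59e-04), and by 2.93 without 984 (adjusted p = 0.00713). The controls themselves split into a higher and a lower pair, all 4 above every BPA library.

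Of the remaining muscle-made rows, only LOC101106374 passed without 984. It measured 996, 1008, 1454 and 893 in controls and 192, 355, 358 and 319 in BPA, a log2 difference of -1.84 (SE 0.20, adjusted p = 0.00252; -1.88 and 0.0157 without 984). Its name was not found in the RefSeq table. In the livers it ranged from 379 to 1037 in controls and from 219 to 420 in BPA. The groups overlapped there.

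CA12, a membrane-bound carbonic anhydrase that interconverts CO2 and bicarbonate, was the only muscle-made gene that fell with a symbol in the deposited table. Controls measured 364, 481, 412 and 259, and BPA libraries 183, 150, 125 and 164. The means were 379 ± 93.3 and 156 ± 24.3 and differed by -1.26 on the log2 scale (SE 0.18, adjusted p = 0.0251). No liver library exceeded 17.0 for CA12. Without 984 the difference was -1.29 and no longer passed (adjusted p = 0.106). edgeR gave an adjusted p of 0.0312 with all 8 libraries and 0.164 without 984.

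FAM71A was the 1 muscle-made gene that rose. It measured 2.44, 2.53, 2.35 and 3.27 in controls and 15.6, 13.1, 18.3 and 24.3 in BPA, a log2 difference of 2.34 (SE 0.36, adjusted p = 0.0357). The control values stand for 2 to 4 reads per library, 11 in all, against 74 in the BPA libraries. The highest value was that of 984, and without it the adjusted p was 0.267 at a difference of 2.19.

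The last pair were low or uneven. Both had BPA means under 10 and met the mean minimum through their controls. LOC101107772 measured 239, 12.6, 135 and 159 in controls and 4.46, 0.767, 0 and 1.62 in BPA, where only 7 reads were counted in all. Control 908 lay far nearer to the BPA libraries than to the other controls. The log2 difference was -5.36 (SE 0.82, adjusted p = 0.0331), and without 984 it was -5.43 (adjusted p = 0.138). LOC101118511, which the RefSeq table names PABIR3, fell from 26.6 ± 5.48 to 7.01 ± 1.18, a log2 difference of -1.77 (SE 0.28, adjusted p = 0.0464; 0.173 without 984). The LOC rows after the first 3 were named after their values were seen.

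**Figure D3:**
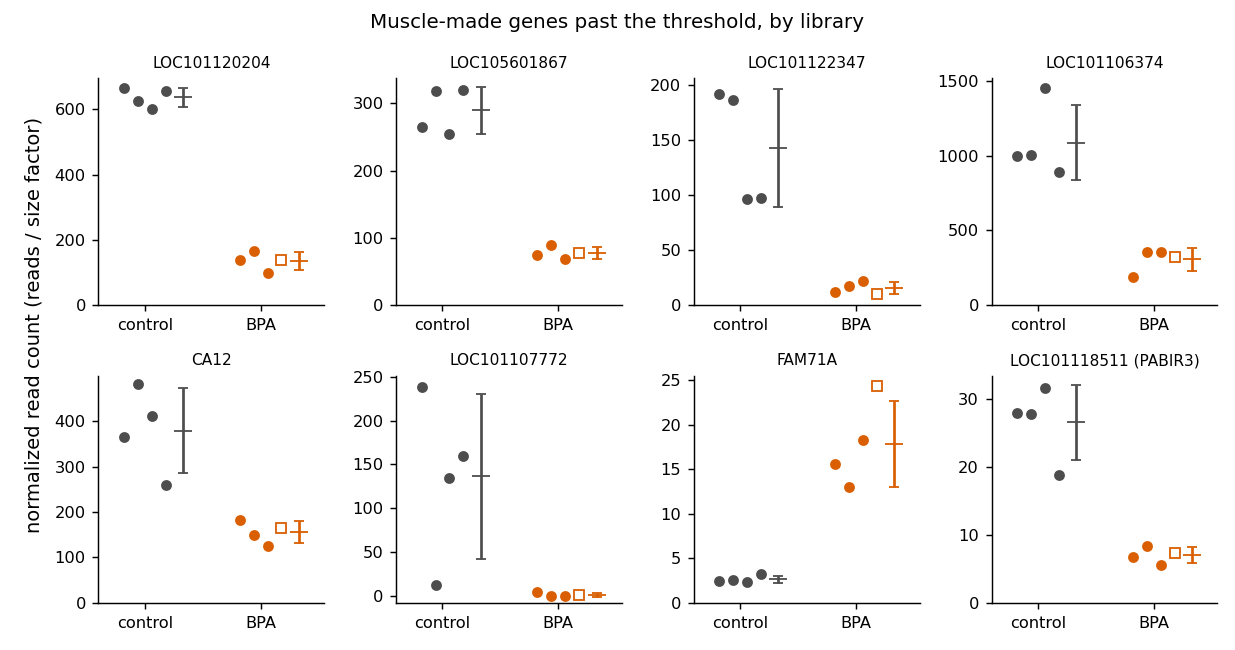
Normalized read counts of the 8 muscle-made genes with an adjusted p under 0.05, 1 point per library, with the mean and SD of each group of 4 beside the points; the open square is BPA 984. In every panel the groups do not overlap, with FAM71A the only gene higher in BPA.

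Of the liver-type transcripts 10 fell (2.02%) and 1 rose (0.202%) in BPA muscle. The rows for all 3 fibrinogen chains, which assemble into the clotting protein of plasma, fell by more than 1 log2 unit. FGA, the alpha chain, measured 1577, 1598, 1579 and 1777 in controls and 872, 649, 640 and 693 in BPA. The highest BPA library, 910, lay well under the lowest control. The means of 1633 ± 96.5 and 714 ± 108 differed by -1.20 on the log2 scale (SE 0.11, adjusted p = 6.18e-04; 0.00713 without 984).

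FGB, the beta chain, measured 2151, 2206, 1858 and 2209 in controls and 1099, 714, 762 and 772 in BPA (log2 difference -1.35, adjusted p = 8.96e-04). FGG, the gamma chain, measured 1214, 1391, 1179 and 1325 in controls and 652, 457, 451 and 511 in BPA (-1.31, adjusted p = 7.41e-04). Without 984 the adjusted p-values were 0.00791 and 0.00713. These 3 genes are neighbours in the RefSeq order. Ceruloplasmin CP, the copper-carrying ferroxidase of plasma, fell from 347 ± 41.8 to 156 ± 46.0 (log2 difference -1.19, adjusted p = 0.0331). CP did not pass without 984 (adjusted p = 0.173) or with edgeR (adjusted p = 0.0577). Among the limma fits with a single library left out it passed only without 910 (adjusted p = 0.00231).

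LOC101102413, a protein-coding row listed between TXNL4B and DHODH, had the smallest p of the liver-type rows. It measured 1747, 1778, 1831 and 2112 in controls and 809, 665, 710 and 745 in BPA, a fall of 1.35 (SE 0.09, adjusted p = 5.63e-05; 8.19e-04 without 984). LOC101116892, LOC101115576 and LOC101119509 lie near one another in the stretch between SERPINA5 and GSC, where serine protease inhibitor genes sit. LOC101115576 went from 658 ± 60.3 to 310 ± 29.9 and LOC101119509 from 160 ± 34.1 to 52.8 ± 5.28, by 1.08 and 1.56. Both passed without 984 (adjusted p = 0.00713 and 0.0157). LOC101116892 fell by 1.003, LOC114117619 by 1.14 and LOC101117146 by 0.99, and none of these passed without 984 (adjusted p = 0.0997, 0.126 and 0.151). All these LOC rows were named after their values were seen.

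The 1 liver-type row that rose was LOC101116024, which the RefSeq table names ARSD, an arylsulfatase. It measured 32.9, 13.5, 15.3 and 14.7 in controls and 94.7, 105, 98.3 and 84.3 in BPA. All 4 BPA libraries lay above every control, and the highest control was 902. Its muscle mean was 4.83% of its liver mean, just under the split, a share that the BPA libraries raised. The log2 difference was 2.36 (SE 0.26, adjusted p = 0.00252), and 2.41 without 984 (adjusted p = 0.0159). In liver the same row ranged from 243 to 1980 in controls and from 500 to 1465 in BPA.

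**Figure D4:**
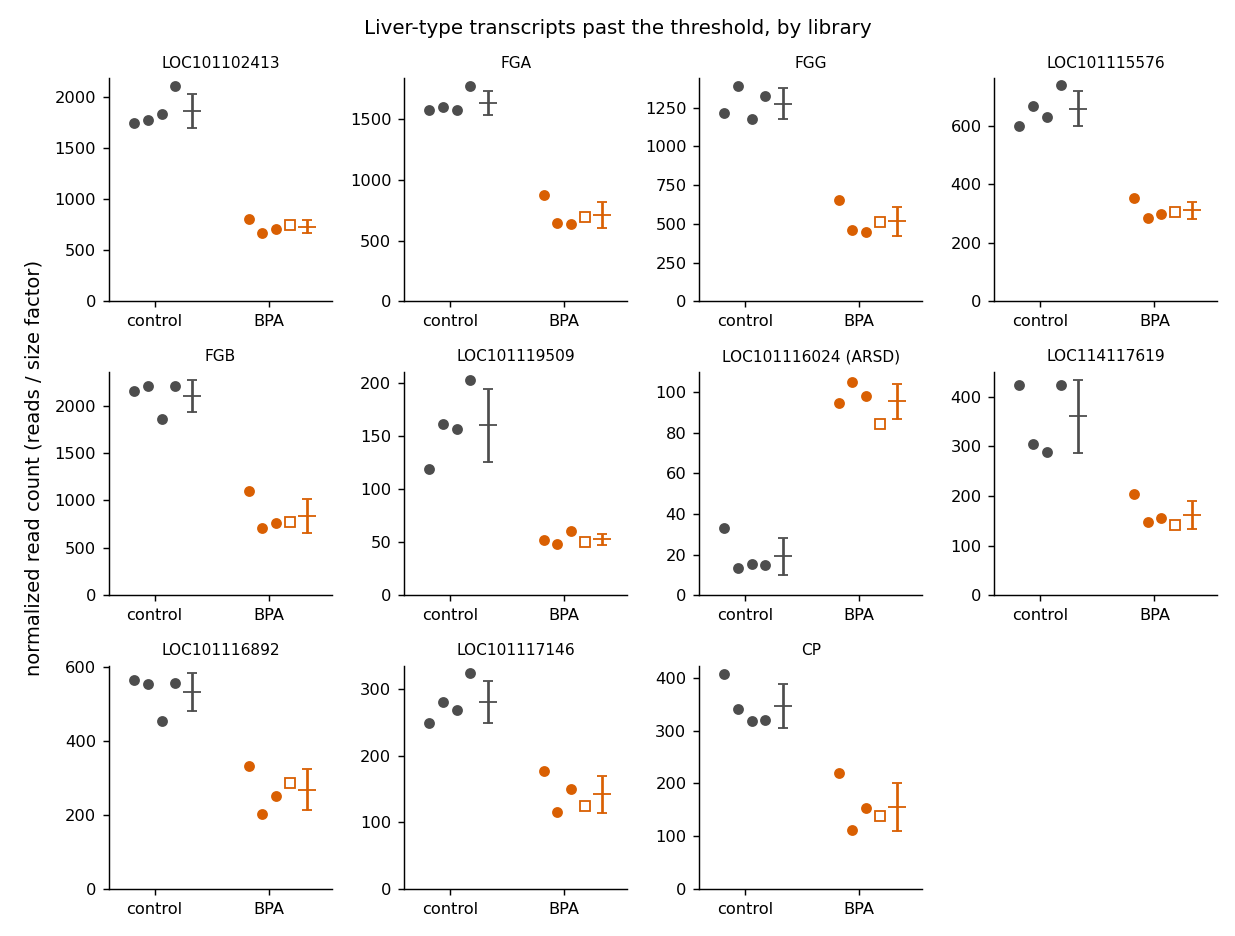
Normalized read counts of the 11 liver-type transcripts with an adjusted p under 0.05, 1 point per library, with the mean and SD of each group of 4 beside the points; the open square is BPA 984. In 10 panels the groups part with lower BPA libraries, and in LOC101116024 (ARSD) with higher ones.

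Hepatocyte markers as a list, which includes the fibrinogens and CP, had lower estimates in BPA muscle, the other members less separated. All 29 hepatocyte markers tested, of 30 listed, had lower estimates, with a median of -0.55 (also -0.55 without 984), and the 4 called were the 3 fibrinogens and CP. Over the 495 liver-type rows the median was -0.24 and 366 (73.9%) had lower estimates, compared with a median of 0.00 and 7057 of 14211 (49.7%) among muscle-made genes. The liver-type groups did not overlap in 48 rows with BPA below (9.7%) and 4 with BPA above (0.808%). Albumin ALB measured 7747, 4655, 4662 and 4401 in controls and 5050, 2257, 3724 and 3361 in BPA. The groups overlapped through 910, and the difference of -0.59 did not pass (adjusted p = 0.555; 0.945 without 984).

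The plasma transport and lipid genes sat between these. Haemopexin HPX, which binds free haem, went from 265 ± 18.4 to 157 ± 33.9 (log2 difference -0.78, adjusted p = 0.0937; 0.351 without 984). APOB, the apolipoprotein of very-low-density and low-density lipoproteins, measured 771 ± 190 and 452 ± 137 (-0.80, adjusted p = 0.317; 0.755 without 984). LBP, which carries bacterial lipopolysaccharide, measured 133 ± 33.8 and 49.8 ± 14.0 (-1.41, adjusted p = 0.0702; 0.155 without 984). Of the 33 tested genes of complement, coagulation and the acute phase, 28 had lower estimates with a median of -0.60 (-0.56 without 984). BPA lay wholly below in 12 of the 33, against 2.48% of all genes and 9.7% of liver-type rows, and 31 of the 33 are liver-type. Of these 33 only the fibrinogens passed. CP and the LOC rows that passed were not on this list.

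The amount of hepatocyte signal itself differed between libraries. The summed hepatocyte markers were 27839, 20457, 18489 and 20002 in controls and 20449, 9841, 13263 and 14028 in BPA, so that 3 BPA libraries lay below every control and 910 did not. Fewer cells of a type and less RNA per cell cannot be told apart in such bulk samples. Where the hepatocyte transcripts in these muscle libraries came from was not tested. With this sum as a covariate 6 genes passed, of which 4 were among the 19: LOC101120204, LOC105601867, LOC101102413 and LOC101106374. The other two, named after their values were seen, were OVAR (-2.23, adjusted p = 7.75e-04) and the phospholipid transfer protein gene PLTP (1.58, adjusted p = 0.0157), which without the covariate differed by -1.36 and 0.54 and did not pass. The fibrinogens, CP, ALB, APOB and HPX are themselves part of the sum, so that their differences shrink in this fit by construction and nothing is read from them there.

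One ratio between these transcripts lay outside the range of the livers. FGA per ALB was 0.204, 0.343, 0.339 and 0.404 in control muscle and 0.173, 0.287, 0.172 and 0.206 in BPA muscle, with overlap. In liver the ratio ran from 0.122 to 1.76. LOC101120204 per FGA was 0.370 to 0.421 in control muscle and 0.156 to 0.254 in BPA muscle, all above the highest liver, 910, at 0.0608. The lowest liver stood at 4.50e-04.

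No gene passed the test of whether the BPA effect differed between muscle and liver. Of 13677 genes tested in both tissues 0 were called by limma (0%), with 2661 (19.5%) at an unadjusted p under 0.05 and a smallest adjusted p of 0.117. The animal as a block also gave 0, and edgeR 0 with a smallest adjusted p of 0.081. The livers were uneven, with depths of 4.39 to 19.28 M recovered reads. The control liver 902 held 10447 normalized reads of ALB against at least 677303 in the other control livers. Among BPA livers, 910 held 548171, while 918, 977 and 984 held 197662, 112257 and 91332. Without animal 910 the test called 3018 genes, without 902 it called 4 and without 908 it called 1. Without animal 984 it called 0, with a smallest adjusted p of 0.461.

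The smallest p-values of that test belonged to genes with the larger change on the liver side in 4 of 6. ONECUT2, a liver transcription factor, measured 71.3 ± 15.9 in control and 30.0 ± 4.64 in BPA muscle (-1.21, adjusted p = 0.0527; 0.238 without 984), and differed between tissues by -1.69 (adjusted p = 0.117). LOC101107772 differed by -6.61 (adjusted p = 0.121) and MAP2, a microtubule-associated protein gene, by -2.73 (adjusted p = 0.135). The estimates with muscle above liver were 3.31 for the lymphatic endothelial receptor LYVE1, 2.52 for MMRN1, which encodes multimerin, and 1.61 for the retinol dehydrogenase RDH11 (adjusted p = 0.117, 0.135 and 0.171). In muscle alone LYVE1 differed by 0.64, MAP2 by -0.28, RDH11 by 0.28 and MMRN1 by 0.13, none past the threshold.

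Among muscle-made genes with a symbol that were higher in BPA but did not pass, BTG2 and NR4A1 had the smallest p. Both are immediate early genes, which are induced within minutes by stretch, contraction or stress. BTG2, an antiproliferative gene, measured 603, 1016, 660 and 1136 in controls and 1521, 1814, 2045 and 1672 in BPA (log2 difference 1.09, adjusted p = 0.0697). NR4A1, an orphan nuclear receptor, measured 2998, 4179, 2509 and 4665 in controls and 5564, 7943, 8683 and 7848 in BPA (1.09, adjusted p = 0.0805). The groups did not overlap in either gene. Without 984 the adjusted p-values were 0.248 and 0.345.

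Of 26 immediate early genes tested, 22 had higher estimates in BPA, with a median of 0.48 (0.46 without 984), compared with a median of 0.00 over all genes. In 4 of the 26, BTG2, NR4A1, NR4A3 and ATF3, BPA lay wholly above, with and without 984 (2.05% of all genes, 2.68% without 984). NR4A3, a relative of NR4A1, measured 40.2, 294, 81.0 and 187 in controls and 405, 359, 341 and 395 in BPA (1.68, adjusted p = 0.322; 0.769 without 984). ATF3, a stress-induced transcription factor, measured 902 ± 490 and 2031 ± 118 (1.37, adjusted p = 0.258; 0.688 without 984). FOS measured 1483, 2367, 1533 and 4126 in controls and 6284, 3781, 6402 and 5429 in BPA, with overlap through control 928 (1.30, adjusted p = 0.18; 0.541 without 984). The phosphatase gene DUSP1 measured 3381 ± 1204 and 5609 ± 722 (0.78, adjusted p = 0.243; 0.685 without 984). ATF3, FOS and DUSP1 were named after their values were seen.

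The summed immediate early genes were 22652, 35398, 26631 and 40225 in controls and 46584, 43778, 51960 and 48623 in BPA, without overlap. Calls in the list depended on the libraries and on the fit. With sample quality weights, 8 passed (ATF3, BTG2, DUSP1, EGR1, FOS, JUNB, NR4A1 and NR4A3), with adjusted p-values from 0.00332 to 0.0361. Without control 928, 5 passed (BTG2, DUSP1, FOS, NR4A1 and NR4A2), with adjusted p-values from 0.00212 to 0.0355. Without BPA 910, NR4A1 passed at 0.0303, and edgeR without TMM factors called BTG2 and NR4A1. DESeq2 called BTG2, NR4A1 and DUSP1 (adjusted p from 4.15e-05 to 0.0422), and without 984 BTG2 and NR4A1 (9.39e-04 and 0.00167). With no filter on low values BTG2 passed at 0.0443.

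Other genes near the threshold were of varied kinds. PRUNE2 measured 128 ± 33.9 in controls and 248 ± 43.5 in BPA, and FAM129A, a stress-responsive gene, 479 ± 45.6 and 681 ± 63.8 (adjusted p = 0.113 for both; 0.438 without 984). Lower in BPA were OVAR, at 9511 ± 1632 and 3875 ± 1541 (-1.36, adjusted p = 0.0697; 0.248 without 984; past the threshold with the hepatocyte covariate, as above), and HSD17B12, a 3-ketoacyl-CoA reductase of fatty acid elongation, at 171 ± 14.3 and 99.8 ± 21.8. SH2D4A, an SH2-domain adaptor gene, measured 279 ± 98.9 and 112 ± 24.5 (adjusted p = 0.113 for this gene and HSD17B12; 0.431 without 984). CHRND, the delta subunit of the acetylcholine receptor at the muscle endplate, measured 94.97, 70.8, 231 and 69.5 in controls and 36.8, 29.2, 18.3 and 23.5 in BPA. It did not overlap between groups, and its difference of -1.93 had an adjusted p of 0.0937 (0.357 without 984), while DESeq2 called it (adjusted p = 8.60e-05; 0.00286 without 984). The 13 tested genes of the neuromuscular junction and denervation had a median of -0.06, with 5 higher and 8 lower.

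The contractile apparatus showed no gene past the threshold. Skeletal actin ACTA1 measured 968366 ± 136929 and 912166 ± 88100, and the fast myosin heavy chain MYH1 1350935 ± 134139 and 1180601 ± 147493. MYH2, the fast oxidative heavy chain, measured 200429 ± 67315 and 242339 ± 83257, with 910 the highest library. Medians were -0.04 over 13 fast-fibre genes and -0.01 over 11 slow-fibre genes. The slow-fibre light chain MYL6B varied widely, at 444, 69.1, 621 and 2915 in controls and 2023, 3542, 935 and 2229 in BPA (2.01, adjusted p = 0.605). MYL3, the slow light chain, differed by -0.43 and the fast myosin-binding gene MYBPC2 by -0.20.

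Filament and calcium-handling genes had slightly lower estimates, of a size that scaling alone can move. In edgeR, FGA was -1.18 with TMM factors and -1.10 without them. Of 34 genes of the filaments, Z disc and titin, 30 were lower, with a median of -0.13 (-0.14 without 984). LMOD3, which nucleates thin filaments, measured 11994 ± 673 and 10414 ± 187 (-0.20, adjusted p = 0.575), and the Z-disc gene PDLIM5 differed by -0.21. Of 22 calcium genes 17 were lower (median -0.06). JSRP1, a protein of the junctional reticulum, measured 4358, 4090, 4307 and 4195 in controls and 3130, 3710, 3103 and 3618 in BPA, without overlap (-0.33, adjusted p = 0.277). The calcium channel subunit gene CACNG1 differed by -0.26. RBM20, which directs titin splicing, was lower in all 4 BPA libraries, 1270 ± 148 and 884 ± 72.4 (-0.52, adjusted p = 0.113), and it passed without control 902 (adjusted p = 0.0482). DESeq2 called both JSRP1 and RBM20 (adjusted p = 0.0318 and 0.00136; 0.108 and 0.0126 without 984).

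Growth and differentiation genes were mostly level. Myostatin MSTN, which limits muscle growth, measured 219, 282, 310 and 265 in controls and 231, 164, 188 and 164 in BPA. The groups overlapped through 910, and the difference of -0.53 did not pass (adjusted p = 0.301; 0.792 without 984). The 20 genes of the atrophy and myostatin axis had a median of -0.02, and among them the ligase gene TRIM54 differed by -0.31. Among 15 myogenic regulators and MEF2 factors, MEF2C differed by -0.27 and MEF2B by 0.52, with a median of 0.00. The imprinted growth factor gene IGF2 measured 1329 ± 252 and 1018 ± 174 (-0.38, adjusted p = 0.591).

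The receptors of oestrogen and insulin did not pass. The oestrogen receptor gene ESR1 measured 1158, 765, 968 and 799 in controls and 880, 1055, 698 and 808 in BPA, a difference of -0.10 with a 95% interval from -0.43 to 0.24. ESR2 was low, at 21.4 ± 13.1 and 23.7 ± 10.1, and the membrane receptor GPER1 at 29.8 ± 5.72 and 32.8 ± 7.12. The oestrogen-related receptor ESRRG, a regulator of oxidative metabolism, measured 168 ± 30.9 and 131 ± 13.6. The insulin receptor INSR measured 2973 ± 406 and 2833 ± 197 (-0.06, 95% interval from -0.30 to 0.18).

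IRS1, an insulin receptor substrate gene, measured 2905, 2474, 2530 and 2913 in controls and 2199, 5776, 3207 and 4178 in BPA. The BPA libraries spread from below the lowest control to well above the highest, and the difference of 0.42 did not pass (adjusted p = 0.713). IRS2 differed by 0.14, the insulin-responsive glucose transporter gene SLC2A4 by 0.16 and the coactivator PPARGC1A by 0.14. The receptors PPARA, PPARG and THRA differed by -0.16, 0.15 and -0.11, and CPT1B, which admits fatty acids to mitochondria, by -0.20. Of the panel of 33 single genes 30 were tested, none was called, and their log2 differences ran from -0.53 to 0.42.

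Mitochondrial and proteolytic genes had many small lower estimates. Of 53 nuclear-encoded subunits of oxidative phosphorylation 47 were lower (median -0.08; -0.11 without 984), of 70 mitochondrial ribosomal proteins 56 (-0.14; -0.15) and of 37 proteasome subunits 33 (-0.14; -0.14). Over all genes 50.5% of estimates were lower. None passed: NDUFS3 of complex I differed by -0.34 and SDHD of complex II by -0.23, the proteasome subunit gene PSMD4 by -0.26, MRPL27 by -0.49 and MRPL54 by -0.35. These medians rested on 910 and on the scaling. Without 910 they were 0.03, -0.06 and -0.04, and in edgeR without TMM factors 0.02, -0.04 and -0.05.

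Fuel and stress genes likewise gave no call. In fatty acid oxidation ACADL differed by -0.45 and DECR1 by -0.22 (30 genes, median -0.04). The 32 genes of glycolysis and glycogen had a median of -0.09, and of 0.03 without 910. FASN, the fatty acid synthase, measured 1006, 995, 951 and 932 in controls and 1217, 1206, 1224 and 1306 in BPA, tight within groups and without overlap (0.35, adjusted p = 0.122; 0.547 without 984). Of 28 synthesis genes 19 had higher estimates (median 0.08), and the methylsterol monooxygenase gene MSMO1 differed by -0.52. The small heat shock gene HSPB1 measured 28242 ± 2936 and 20781 ± 940 (-0.44, adjusted p = 0.225) and its regulator HSF1 1839 ± 25.6 and 1523 ± 124 (-0.28, adjusted p = 0.343), both without overlap. DESeq2 called FASN and HSPB1 (adjusted p = 9.41e-04 and 9.64e-04), and without 984 it called HSPB1 (0.00838) and not FASN. The mitochondrial fission gene FIS1 differed by -0.28, and the clock genes CRY2 and PER1 by 0.26 and 0.27.

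The medians of the matrix and fibroblast lists rested largely on 910. Of 44 extracellular matrix genes 38 had higher estimates (median 0.14; 0.12 without 984), and of 15 fibroblast markers 12 (median 0.18; 0.20). Without 910 those medians were 0.01 and 0.04. DPT, a dermatopontin made by fibroblasts, measured 1014 in 910 and 345 to 553 in the other BPA libraries, against 237 to 401 in controls. The basement membrane gene NID2 had no overlap, at 467 ± 49.7 and 606 ± 46.4 (0.38, adjusted p = 0.277), while TGFB2 differed by -0.38. The summed fibroblast markers were 25057 to 32044 in controls and 24928 to 42541 in BPA, and the summed macrophage markers 1367 to 2025 and 1516 to 2671.

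Immune and translation lists were also without a call. Of 20 interferon-stimulated genes 16 had higher estimates (median 0.15; 0.16 without 984), and BPA lay wholly above in 2 of them, IFIT1 and STAT2, with and without 984 (2.05% of all genes, 2.68% without 984), at differences of 0.34 and 0.19. The lymphocyte receptor gene IL7R measured 19.2 ± 3.34 and 31.1 ± 6.05, and 27.6 to 28.4 in the BPA libraries other than 910. The myeloid integrin gene ITGAM measured 35.6 ± 1.66 and 50.03 ± 12.6, and both genes were highest in 910. BPA lay wholly above in 2 of 9 T and NK cell markers, with and without 984 (2.05% of all genes, 2.68% without 984). Of 13 macrophage markers 12 had higher estimates (median 0.16; 0.13 without 984). CIDEA, a lipid droplet gene of fat cells, differed by 0.79 with overlap. Over 75 cytosolic ribosomal proteins the median was -0.03, with RPS3A at 0.42, and over 41 splicing genes -0.01, with SRSF5 at 0.31. HBB had all 4 BPA libraries above the controls (3.30, adjusted p = 0.224), at 3.43 ± 2.14 in controls.

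**Figure D5:**
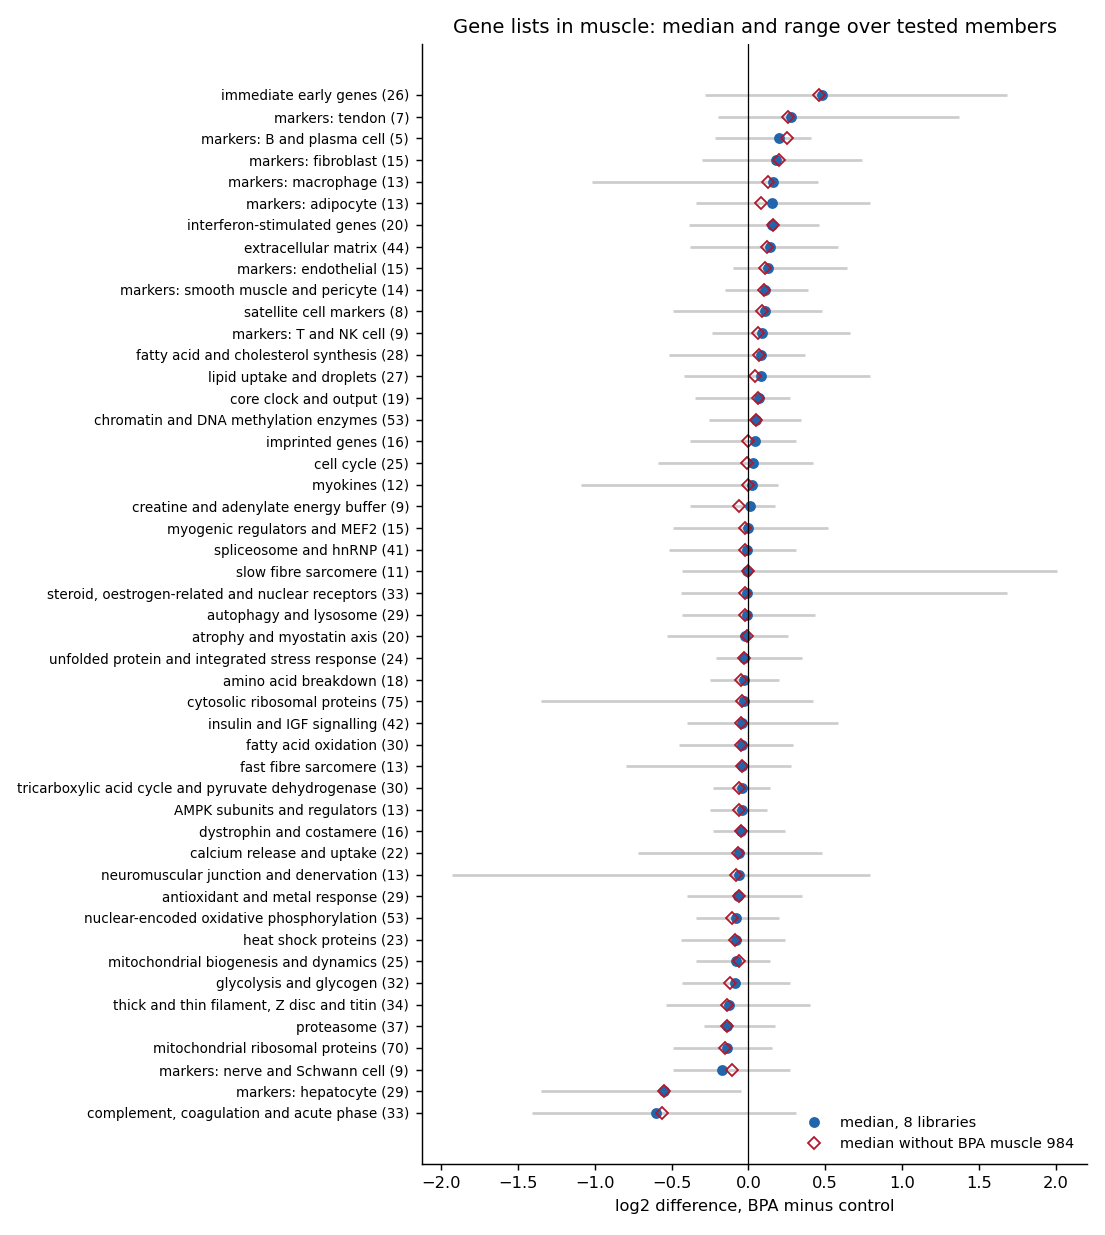
For each gene list with at least 5 tested members (number in brackets), the filled circle is the median log2 difference between BPA and control muscle, the open diamond the median without BPA 984, and the grey line the range over members. Most medians lie close to 0; the immediate early genes (0.48) lie highest, and the hepatocyte (-0.55) and complement, coagulation and acute phase (-0.60) lists lowest.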

How the data were processed

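Vastus lateralis and liver RNA was depleted of ribosomal RNA and made into libraries with a low-input kit, per the labels' protocols. Trimmomatic, FastQC and DESeq2 1.24.0 are named in the submitters' processing notes. The choice of aligner, counter, strandedness, annotation and build is not given in the sources used here. No coordinates are therefore printed, and rows with near-identical copies or antisense partners are uncertain. The values the authors deposited are a normalized signal: counts scaled by a size factor for each of the 16 libraries. Values were taken as multiples of 1 step per library, and at least 99.996% of values per library came out as whole reads within 0.1 read. RefSeq's gene table (ARS-UI_Ramb_v3.0) held 22718 of the 28524 names and served for current symbols and neighbouring genes alone. No column of values was left unused.

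Differences were tested in R 4.3.3 by limma 3.58.1, with values as log2(value + 1), a scale that understates changes of low genes, with eBayes and an intensity trend, over genes with a mean of at least 10 in the 8 muscle libraries. P-values were adjusted by Benjamini-Hochberg over all genes tested, with a two-sided threshold of 0.05. The difference between tissues used all 16 libraries and genes with a mean of at least 10 in each. edgeR 4.0.16 (quasi-likelihood, TMM) and DESeq2 1.42.0 were run on the recovered counts as alternatives, beside other pseudocounts, filters, scalings, variance models, the summed hepatocyte markers as a covariate, other splits of muscle-made genes, and leaving out each library. The limma fits were tested on simulated data with known changes, few of which the fit of the difference between tissues recovered. The BPA library 984 was compared with its group over genes with group means of 50 to 20000, and the most variable genes were those with a coefficient of variation over 0.8 among the other 3.

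Named genes were those past the threshold without overlap (symbols: up to 12 muscle-made and 5 liver-type per direction, muscle-made filled to 5; LOC rows: 3 per direction), the 2 smallest p of each list, a panel, and, for the muscle against liver difference, the 3 smallest p in either direction. Not every such gene is given, and some are not reported here. The members and the gene lists were chosen with earlier results of these data known.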

Additional observations from a re-analysis of the deposited data

Results flagged for a closer look

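For 95 genes, each group of 4 muscle libraries was searched for a library whose gap to the nearest other exceeded Dixon's 95% critical share of the group's range. This held in 16 of 190 groups (8.42%), where chance gives about 1 in 20. Control 902 was the highest of its group for ALB (7747), APOB (1054), LOC101116024 (32.9), ONECUT2 (94.97) and CPT1B (3476), and the lowest for OVAR (7082). BPA 910 was the highest of its group for FGB (1099) and IL7R (40.1) and the lowest for CKM (310128) and THRA (3601). BPA 977 was the highest for STAT2 (456). Control 924 was the highest for CHRND (231) and the lowest for FGB (1858) and LOC101116892 (454). Control 928 was the highest for FGA (1777), and control 908 for IRS2 (1611). In FGA, FGB, LOC101116892, LOC101116024, CHRND and OVAR the 2 groups did not overlap. These genes were named for small p-values in the same libraries, which largely fixed this in advance.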

How the results depend on the processing

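All 19 genes past the threshold kept their direction under every alternative in which they were tested. Their choice from these same libraries made this likely in advance. Of these 19, 4 still passed with the hepatocyte covariate and 0 with all 16 libraries in 1 fit. With 1 library left out, 11 still passed without 984 or without 977, and 12 without 902 or without 918. Without 908, 924 or 928 it was 13, and without 910 it was 17. The count of 19 became 377 with sample quality weights, 131 with DESeq2, 6 with the hepatocyte covariate, 4 with muscle-made genes alone in the fit and 0 with all 16 libraries in 1 fit. Without BPA 984 edgeR called 11 and DESeq2 56, both chosen after seeing the data. Leaving out 1 library at a time gave 11 (without 984) to 31 (without 910) calls in all, which can include genes outside the 19. edgeR without TMM factors split its calls into 5 higher and 12 lower, against 2 and 17 in the main analysis. Muscle-made calls (8) became 14 without a filter, 5 at a mean of at least 50, 325 with weights, 105 with DESeq2, 5 with the covariate, 4 alone in the fit, 0 with 16 libraries, 18 with the split at 1%, and without 984 4 (edgeR) or 36 (DESeq2). Leaving out 1 library gave 4 (without 984) to 21 (without control 928). With the split at 20%, 6 calls were muscle-made and 13 liver-type, with LOC101120204 and LOC105601867 then on the liver side. Liver-type calls (11) became 7 without an intensity trend, 52 with weights, 0 with 16 libraries, 7 in edgeR without TMM factors, 26 with DESeq2, 1 with the covariate, 1 with the split at 1%, and without 984 7 (edgeR) or 20 (DESeq2). Leaving out 1 library gave 7 to 19 (without 910). The cause was not tested. With 3 libraries in a group, fewer samples enter the fit.

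The difference between tissues stayed at 0 calls with the animal as a replicate block (smallest adjusted p = 0.243, 2296 genes at an unadjusted p under 0.05), and leaving out 1 animal gave 0 to 3018. Within muscle each animal belongs to 1 group, so no pairing exists there.

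Signs changed for genes with small differences. With the hepatocyte covariate IGF2 was 0.11, IRS1 -0.22, SLC2A4 -0.32, PPARGC1A -0.06, APOB 0.02 and ALB 0.28. APOB and ALB are part of the covariate, which fixes much of their change in advance. In edgeR without TMM factors CKM was 0.04, ACTA1 0.00 and INSR 0.02, and with weights PPARGC1A was -0.02 and ESR2 -0.17. Leaving out 1 library gave -0.08 to 0.03 for CKM, -0.13 to 0.01 for ACTA1, -0.05 to 0.37 for SLC2A4, -0.20 to 0.02 for ESR1, -0.14 to 0.59 for ESR2 and -0.01 to 0.23 for MMRN1. Of the 30 panel genes tested, 20 changed sign under at least 1 alternative. Depth limits genes of few reads, such as FAM71A.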

Other observations

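A few further rows just beyond the threshold had the pattern of LOC101107772, with control 908 near the BPA libraries. They were picked after their values were seen. LOC106991388 measured 207, 2.53, 128 and 141 in controls and 0, 0, 1.40 and 0 in BPA (adjusted p = 0.113; 0.4 without 984). LOC101104054 measured 118, 9.27, 65.7 and 54.0 in controls and 3.34, 5.37, 2.81 and 3.24 in BPA (adjusted p = 0.0937; 0.351 without 984). LOC114116675 measured 28, 5.06, 23.5 and 22.1 in controls and 1.11, 0.767, 1.40 and 0.811 in BPA (adjusted p = 0.0697; 0.260 without 984). All 3 met the mean minimum through their controls. None of these 3 names was found in the RefSeq table, and whether these rows share reads with LOC101107772 was not tested.

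Among muscle-made rows beyond the threshold, LOC101109492 had the smallest p of those higher in BPA. It measured 63.3, 71.6, 121 and 117 in controls and 350, 289, 163 and 276 in BPA (1.53, adjusted p = 0.0657; 0.267 without 984), also picked after its values were seen.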
